A study of Mus musculus with 5 samples.

Results

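Periportal hepatocytes, the liver cells that lie next to the portal veins and hepatic arteries, were described in 5 droplet libraries of mouse liver. Hepatocytes were barcodes with at least 5000 unique molecular identifiers (UMIs, counted RNA molecules), 10% to 30% mitochondrial UMIs and at least 1% of UMIs from Alb, Apoa1 and Ttr, which encode the blood proteins albumin, apolipoprotein A1 and transthyretin. Each hepatocyte received a zone score, the log2 ratio of UMIs of 4 pericentral genes (Cyp2e1, Cyp1a2, Oat and Glul) plus 1 to UMIs of 4 periportal genes (Cyp2f2, Hal, Sds and Hsd17b13) plus 1. The periportal set was chosen by these measured values, as the cells with the lowest 25% of scores within their own library. It held 1434 of 5691 hepatocytes: 527 of 2106 P14 hepatocytes, 238 of 925 adult control ones (ties at the limit included), 295 of 1170 taken 24 h after partial hepatectomy, 180 of 719 taken after 48 h and 194 of 771 taken after 96 h.

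All mice were of the C57BL/6J strain. P14 denotes liver of unoperated postnatal day 14 mice, the adult control is adult liver whose title, source and age carry no operation, and the other 3 libraries are adult livers taken 24 h, 48 h or 96 h after a 2/3 partial hepatectomy (PHx), an operation that takes away most liver lobes, at 8 weeks of age. Cells were released by 2-step perfusion, passed over a kit that removes dead cells and captured with a 10x v3 kit. The treatment protocol lists the adult control among the operated animals. It was used here as the control, as its title says. The labels give neither sex nor the number of animals, and a code in the descriptions sets the adult control apart from the other 4 libraries, so that code cannot be told apart from the control. There was 1 library per group. Differences between groups are therefore differences between libraries, with no replicate and no test, whereas the difference between the periportal set and the other hepatocytes was measured 5 times, once in each library.

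The libraries held 80927744 to 136110607 UMIs over all barcodes, and the periportal sets 3229812 to 16479974 UMIs of non-mitochondrial genes. Median depth per periportal cell was 39518, 20533, 20464, 35168 and 20332 UMIs in P14, the adult control, 24 h, 48 h and 96 h, the order used for all series of 5 values below. The other hepatocytes had 38717, 17805, 19286, 35437 and 22648 UMIs, so depth differed more between libraries than between zones. Median mitochondrial shares were 21.2, 26.5, 24.1, 25.4 and 26.5% in the periportal set and 20.4, 24.9, 23.7, 24.0 and 25.9% in the rest. Xist, the RNA that coats the inactive X chromosome, stood at 772 CPM (UMIs per 1000000 non-mitochondrial UMIs of the same cells) in the P14 set and at 0 to 0.197 CPM in the others, and Ddx3y, a Y-linked gene, at 0 in P14 and between 97.3 and 131 CPM in the others. Sex-linked RNA thus differed between P14 and the adult libraries, and its part in the P14 values below was not tested. Pairs of libraries shared 3 hepatocyte barcodes in all, and none of these was periportal in both.

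Blood enters the liver lobule at the portal tract and leaves at the central vein, and oxygen and hormones fall along that path. Periportal hepatocytes are known for urea synthesis from ammonia, gluconeogenesis, amino acid breakdown and the secretion of plasma proteins. Pericentral hepatocytes are known for drug metabolism by cytochrome P450 enzymes, bile acid synthesis and glutamine synthesis, and much of their programme depends on Wnt signals from the endothelium of the central vein. After partial hepatectomy the remaining hepatocytes divide until liver mass is restored.

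The score limits lay at different places in the 5 libraries, which bears on what a lowest share is. The last cell inside and the first outside scored 0.553 and 0.556 in P14, -2.58 and -2.56 in adult control liver, and after hepatectomy -1.29 and -1.28 (24 h), -0.585 and -0.559 (48 h), and -3.87 and -3.87 (96 h). Within 0.25 of the limit lay 129, 100, 68, 33 and 66 cells. In P14 the limit was above 0, and 75.0% of the set scored below 0, against 100% in the other 4 libraries. The P14 set therefore included cells with more UMIs of the 4 pericentral than of the 4 periportal genes, and it is called periportal here by its rule.

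**Figure D1:**
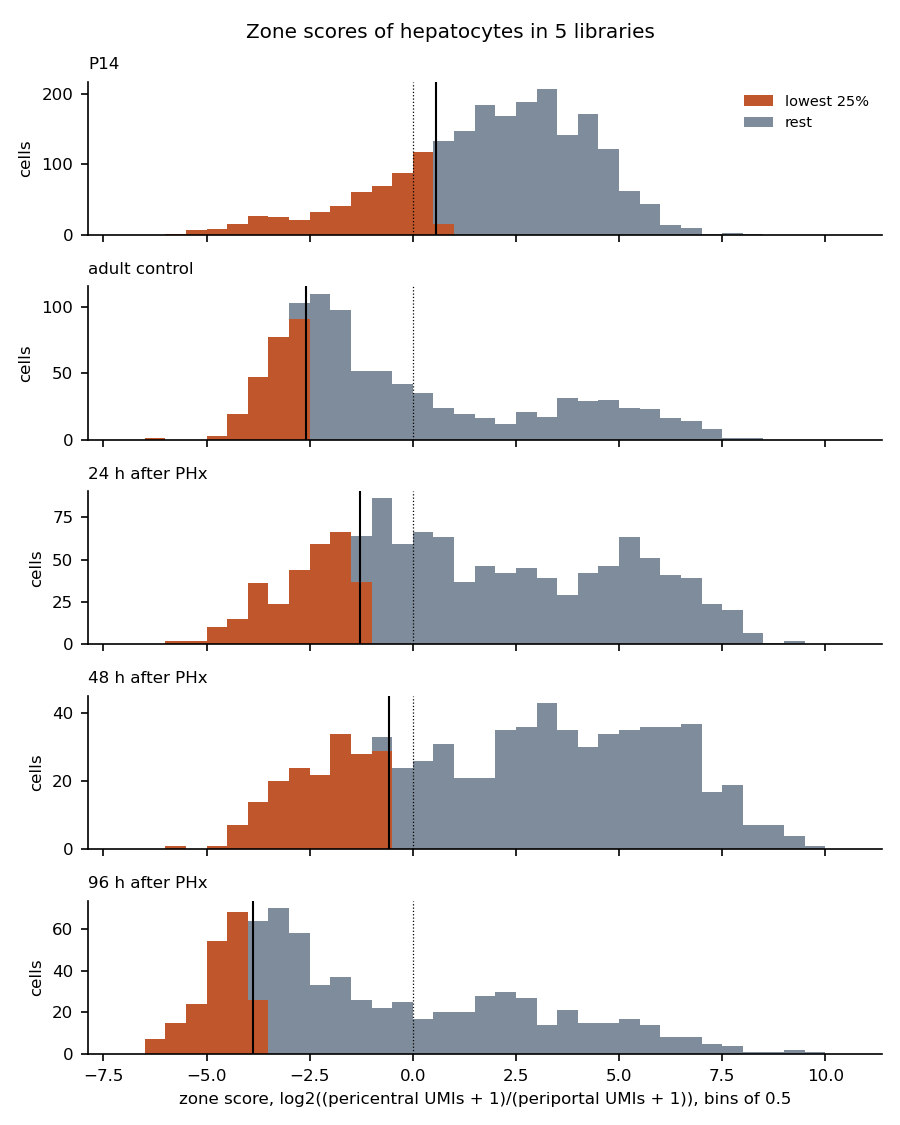
Number of hepatocytes (vertical axis) by zone score in bins of 0.5 (horizontal axis, log2), for 5 libraries. Coloured bars are the periportal set and grey bars the rest, the solid line is the limit and the dotted line marks a score of 0. The limit is at 0.55 in P14 and below 0 in the other libraries, lowest at 96 h.

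The genes that chose the cells are described without a test. Cyp2f2, a lung and liver cytochrome P450, had medians of 2, 43, 16, 22 and 25 UMIs per periportal cell. Hal, which starts histidine breakdown, had medians of 8, 9, 7, 6 and 11 UMIs, Sds, which deaminates serine, 15, 3, 4, 6 and 8, and Hsd17b13, a lipid droplet enzyme, 16, 8, 7, 8 and 13. Among the pericentral genes, Cyp2e1, an ethanol-oxidising cytochrome P450, had medians of 17, 4, 0, 1 and 0 UMIs in the same cells. Hsd17b13 and Sds thus led the P14 set, where Cyp2f2 was the lowest of the 4, and Cyp2f2 led the other sets. All 4 periportal markers were detected in every set. Free RNA was read from empty droplets (barcode ranks 20001 to 60000, with median depths of 460, 1330, 665, 287 and 775 UMIs). At those depths a droplet would hold 0.831, 4.92, 0.359, 0.118 and 0.566 UMIs of Cyp2e1 and 0.0135, 1.41, 0.0996, 0.033 and 0.27 UMIs of Cyp2f2. The median Cyp2e1 of a periportal cell was below that of an empty droplet at 24 h, 96 h and in the adult control and above it at 48 h and P14, whereas the Cyp2f2 of every set was above it.

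Genes outside the score were then compared between the periportal set and all other hepatocytes of the same library. Summed counts were tested with edgeR's quasi-likelihood test, with the library as a block and Benjamini-Hochberg adjustment, leaving out the 8 score genes, the 3 genes of the hepatocyte rule and the 13 mitochondrial genes. Of 10768 genes tested, 399 were higher (3.71%) and 280 lower (2.6%) in the periportal set, and 2064 had an unadjusted p under 0.05. These genes come from the same cells and UMIs as the score, so the test speaks for how alike the split was in 5 libraries. No independent sample of cells was tested. With DESeq2's Wald test 335 genes were higher and 207 lower.

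Known zonated genes that had no part in the score followed it. Of 18 periportal genes held out, 16 were higher, none lower, with a median log2 ratio of 0.58, and of 22 pericentral genes held out, 20 were lower, none higher, with a median of -1.50, against a median of -0.01 over all genes tested. All 18 periportal genes had a positive ratio and all 22 pericentral genes a negative ratio in 5 of 5 libraries. Over all genes tested, 7.09% were positive and 10.4% negative in 5 of 5, and 3.71% passed as higher and 2.6% as lower. Apof and Agxt among the periportal genes and Gstm1 and Gstm3 among the pericentral genes did not pass, at 0.13 (adjusted p = 0.258), 0.24 (0.0846), -0.31 (0.125) and -0.81 (0.0723).

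**Figure D2:**
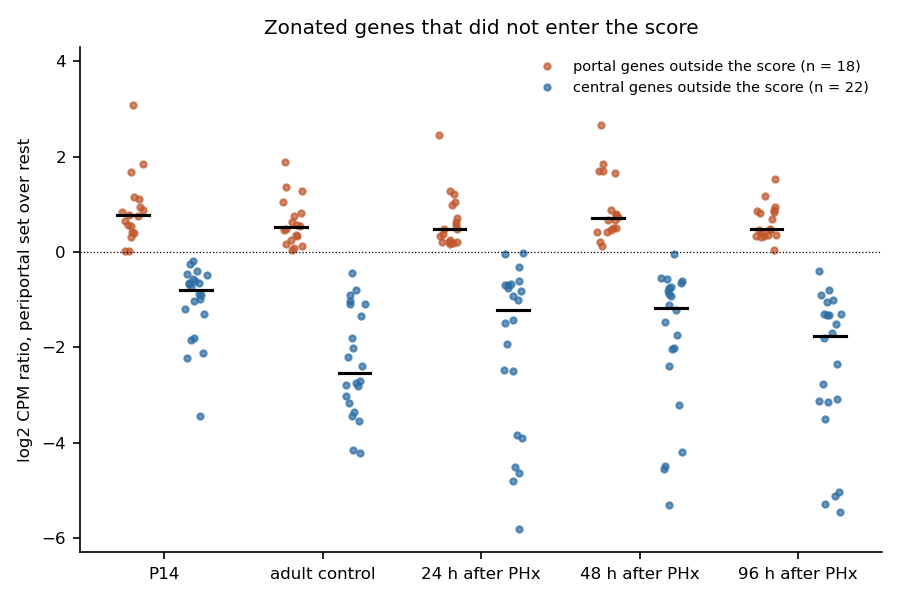
Log2 ratio of CPM in the periportal set over the rest (vertical axis) for 18 periportal and 22 pericentral genes that did not enter the score, by library. Each point is a gene and black lines are medians: every periportal gene lies above 0 and every pericentral gene below 0, and the pericentral median runs from -2.54 in the adult control to -0.81 in P14.

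The 10 named genes with the largest positive ratios had varied roles. Aldh1b1, a mitochondrial aldehyde dehydrogenase, stood at 334, 153, 117, 97.3 and 517 CPM in the set and at 41.7, 29.7, 17.6, 4.63 and 136 CPM in the rest. The set was higher in every library, with an edgeR log2 ratio of 2.79 and a standard deviation over the 5 libraries' ratios (SD, n = 5, on log2 of CPM plus 1) of 0.84 (adjusted p = 2.19e-05). Etnppl, which breaks down phosphoethanolamine, reached 89.3, 200.4, 90.3, 42.7 and 146 CPM against 24.1, 77.4, 36.5, 12.5 and 64.4 CPM, a log2 ratio of 1.53 (SD 0.29, adjusted p = 2.01e-06). Its level was highest in the adult control and lowest at 48 h, while its ratios lay between 1.17 and 1.85. Sdsl, a relative of the score gene Sds, stood at 62.5, 27.5, 59.5, 45.5 and 43.7 CPM against 11.8, 15.4, 27.7, 8.57 and 17.9 CPM (log2 ratio 1.72, SD 0.71). Hsd17b6, which oxidises steroids and retinol, was at 270.4, 221, 93.2, 76.0 and 424 CPM against 103, 62.6, 22.3, 9.33 and 128 CPM (log2 ratio 1.95, SD 0.57). The widest gap of Sdsl was in P14, and that of Hsd17b6 at 48 h.

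Ctsc, the lysosomal protease cathepsin C, had 18.3, 133, 101, 96.1 and 173 CPM in the set and 1.29, 35.3, 17.6, 14.3 and 59.5 CPM in the rest (log2 ratio 2.40, SD 0.62, adjusted p = 3.16e-05). Its P14 level was the lowest, although the P14 ratio of 3.08 was the largest. Spink1, a trypsin inhibitor, was at 134, 1.65, 7.75, 13.0 and 36.2 CPM against 10.5, 0.103, 1.32, 2.79 and 9.99 CPM (log2 ratio 2.95, SD 0.86). The adult set had 6 Spink1 UMIs in all, and the P14 set 2202. Ctnnbip1, an inhibitor of the binding of β-catenin to its partner transcription factors, reached 32.3, 39.6, 29.8, 19.7 and 52.6 CPM against 8.36, 18.0, 9.34, 5.01 and 21.4 CPM. Its log2 ratio of 1.64 (SD 0.32, adjusted p = 8.34e-06) was among the most even of the 10 genes. Cib3, a calcium-binding protein, and Gm35696, a gene model, had edgeR log2 ratios of 1.70 (adjusted p = 6.20e-05) and 1.73 (adjusted p = 2.19e-05). Cib3 reached 50.4 CPM at 24 h but was under 1 CPM in the P14 and 48 h sets. Cdh1, the cell adhesion molecule E-cadherin and a held-out marker, stood at 76.9, 124, 170.5, 98.1 and 154 CPM against 51.4, 73.7, 72.7, 30.4 and 82.6 CPM (log2 ratio 1.04, adjusted p = 4.50e-04).

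**Figure D3:**
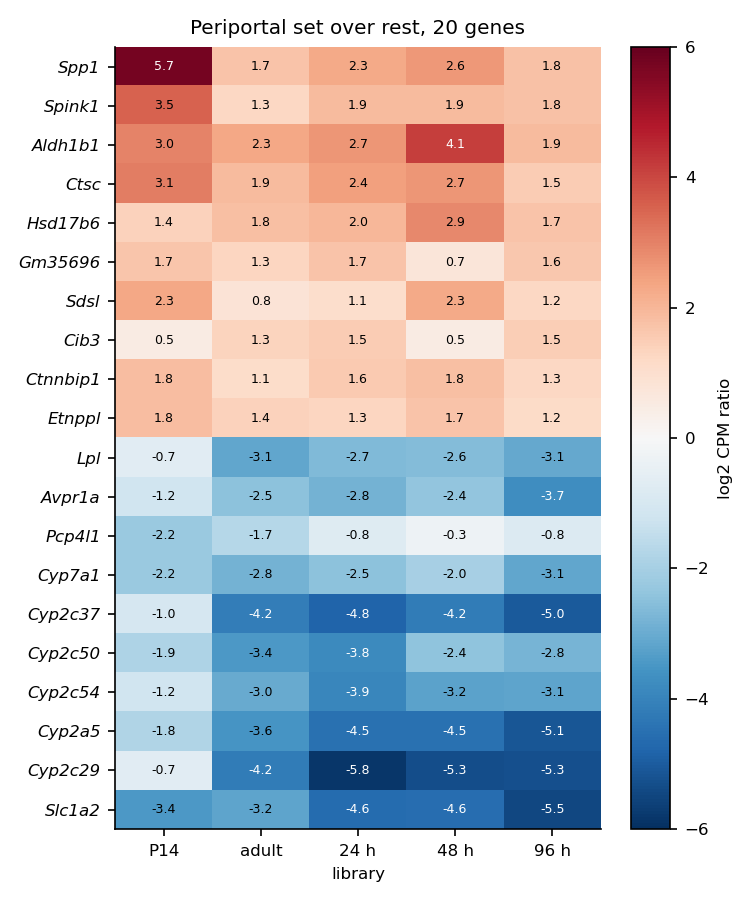
Log2 ratio of CPM in the periportal set over the rest for 20 named genes (rows) in 5 libraries (columns), with the value printed in each cell and colour on a scale from -6 to 6. The upper 10 genes are positive and the lower 10 negative in all 5 libraries, and the Cyp2c genes are weakest in P14, where Cyp2c29 is at -0.67.

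Spp1, the secreted matrix protein osteopontin, which bile duct cells also make, had, with Spink1, the largest edgeR ratio of the named genes that were higher. It stood at 153, 36.3, 165, 40.2 and 338 CPM in the set against 1.87, 10.5, 33.2, 5.71 and 98.2 CPM in the rest (edgeR log2 ratio 2.95, SD 1.68, adjusted p = 0.00395). In P14, 34 of 527 periportal cells (6.45%) held a UMI of Spp1 and a single cell held 1415 of the 2515 UMIs, without which the level was 67.0 CPM. In the rest, a single cell held 260 of 476 UMIs at 24 h (15.1 CPM without it) and 305 of 1003 at 96 h (68.5 CPM without it). In the adult control 57 of 238 periportal cells (23.9%) held a UMI, after hepatectomy 106 of 295 (35.9%), 57 of 180 (31.7%) and 81 of 194 (41.8%). In the rest of each library the shares were 5.32, 9.90, 7.54, 7.61 and 19.4%. After thinning to 5000 UMIs per cell they were 2.47, 8.40, 19, 11.7 and 23.7% in the set and 0.70, 2.47, 3.09, 1.30 and 10.1% in the rest. Empty droplets held Spp1 at 7.34, 18.5, 15.9, 17.7 and 25 CPM, above the level of the rest in P14, the adult control and 48 h. At 24 h they were above the rest without its highest cell (15.1 CPM). The CPM of empty droplets are shares of median depths of 287 to 1330 UMIs, against at least 5000 UMIs in a cell. They do not give the UMIs that free RNA adds to a cell, and its part in the shares of the rest was not tested. The level of the set was above that of empty droplets in each library.

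Markers of bile duct cells were examined because periportal hepatocytes lie beside the ducts. The summed level of 6 such markers was 59.5 to 382 CPM in the sets and 4.57 to 127 CPM in the rest, and Spp1 and Sox9, a transcription factor that periportal hepatocytes are also known to carry, were 2 of 2 tested and higher. Sox9 stood at 15.2, 23.1, 42.0, 44.1 and 44.3 CPM against 2.66, 16.1, 30.8, 26.4 and 28.5 CPM (log2 ratio 0.99, adjusted p = 0.0195). Epcam, Krt7, Krt19 and Cftr, which define bile duct cells, were at 0 in the periportal sets of the adult control, 24 h, 48 h and 96 h. In the P14 set, 7 cells held a UMI of these 4 genes and carried 1986 of the 2515 Spp1 UMIs and 128 of the 251 Sox9 UMIs. The P14 Sox9 level without them was 7.60 CPM. Without all such cells, an alternative chosen after seeing the data, the P14 Spp1 level was 32.7 CPM, and the edgeR log2 ratio of Spp1 was 2.51 (adjusted p = 5.88e-05), against 2.17 (8.49e-09) without the whole P14 library. The ratio was larger, at 5.84 (3.03e-06), with mitochondrial shares of 10 to 20% and, at 6.20 (1.07e-06), with the highest 25% of scores as reference. The count of genes without these cells was 418 higher and 280 lower. Summed red cell genes were at 40.4 to 650 CPM in the sets and 152 to 798 CPM in the rest, with 0 of 5 tested genes past the threshold. Endothelial, stellate, macrophage, T or NK cell, B cell and neutrophil markers gave 0 of 19 tested genes past it (macrophage markers were too low to test). Their summed levels were 5.57 to 20.5, 3.30 to 22.5, 0.310 to 3.85, 1.33 to 16.2, 7.65 to 77.2 and 8.81 to 181 CPM in the sets.

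Most of the ammonia-handling enzymes were higher in the periportal set, by modest amounts. Of 10 urea cycle genes, 7 were higher (against 3.71% of all genes tested) and none lower, with a median log2 ratio of 0.34. The other 3, Nags, Slc25a13 and Glud1, had ratios of -0.10, -0.08 and -0.06 and did not pass, and Glud1 was below the rest in 5 of 5 libraries. Cps1, the mitochondrial entry enzyme, stood at 2778, 3580.5, 5707, 2450.3 and 3775 CPM against 2246, 3285, 4919, 1820.0 and 2931 CPM (log2 ratio 0.32, adjusted p = 0.0111). Ass1, which joins citrulline and aspartate, was at 2502, 1980.0, 1522, 1438 and 2277 CPM against 1588, 1568, 1324, 832 and 1771 CPM (0.50, adjusted p = 0.00166). These 2 abundant RNAs differed by less than 2-fold between zones in every library. Asl, which releases arginine, had a ratio of 0.54, Arg1, which releases urea, 0.48, Otc, which makes citrulline, 0.36, and all 3 passed. Gls2, the glutaminase that feeds ammonia to the cycle, had the largest ratio of the group at 1.11 (SD 0.43, adjusted p = 1.64e-04), with 374, 483, 238, 184 and 481 CPM against 193, 274, 120.0, 50.5 and 269 CPM.

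Amino acid breakdown showed the same direction. Of 32 genes, 15 were higher (against 3.71% of all genes tested) and none lower (median 0.26). They covered histidine (Uroc1 at 0.58, Amdhd1 at 0.68, Ftcd at 0.74), glycine (Gldc at 0.83, Gnmt at 0.32), tryptophan (Tdo2 at 0.34, Kmo at 0.26, Kynu at 0.46), tyrosine (Tat at 0.34), lysine (Aass at 0.36) and methionine (Bhmt at 0.53, Cbs at 0.41), besides the transaminases Got1 (0.63) and Gpt (0.28) and Etnppl. Hal, the first enzyme of histidine breakdown, was a score gene. The 3 enzymes that follow it were all positive in 5 of 5 libraries, and Ftcd, the last of them, was at 275, 332, 223, 181 and 340.3 CPM against 175, 263, 139.9, 73.1 and 222 CPM.

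Genes of glucose production were mostly higher in the periportal set. Of 15 genes of gluconeogenesis and glycogen, 10 were higher and 1 lower (median 0.41), against 3.71% and 2.6% of all genes tested. Pck1, which commits oxaloacetate to glucose, was at 3464, 3253, 2695, 1873 and 2322 CPM against 2389, 2552, 1928, 1410.0 and 1208 CPM (0.58, adjusted p = 0.00252). G6pc, which frees glucose from its phosphate, was at 1259, 141, 177, 224 and 166 CPM against 566, 90.6, 107, 161 and 120.0 CPM (0.74, adjusted p = 2.09e-04), and its P14 level exceeded that of the other 4 libraries. Fbp1, the fructose bisphosphatase of the same path, had a ratio of 0.58 (adjusted p = 7.30e-04).

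Lipid pathways showed less of a split. For all genes tested, the shares were 3.71% higher and 2.6% lower. Of 20 fatty acid oxidation genes, 4 were lower and none higher (median -0.11): Cyp4a14, a fatty acid ω-hydroxylase, at -1.06, the peroxisomal enzymes Acaa1b at -0.65 and Ehhadh at -0.23, and mitochondrial Hadh at -0.22. Of 14 fatty acid synthesis genes, Acly, which makes cytosolic acetyl-CoA (0.69, adjusted p = 0.00201), and Acaca, acetyl-CoA carboxylase (0.35, adjusted p = 0.0299), were higher and none was lower. Fasn, fatty acid synthase, did not pass, with ratios of 0.76, 0.47, -0.15, -0.23 and 0.32, which were positive in 3 of 5 libraries. In the cholesterol list 1 of 22 genes, Dhcr7, was higher (0.31) and none lower, a share near the background.

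Some secreted plasma proteins were higher in the periportal set. Of 20 coagulation and complement genes, 6 were higher and none lower: the coagulation factor F7 (0.24), the thrombin inhibitor Serpinc1 (0.32), vitronectin Vtn (0.29), and the complement proteins C3 (0.27), C9 (0.61) and Cfb (0.39). Of 13 apolipoproteins tested, Apoa4, Apoa5, Apoc2 and Apoc3 were higher and none lower. Over all genes tested, 3.71% were higher. In P14 the median ratios were -0.02 for coagulation and complement and -0.03 for apolipoproteins, and in every other library they were above 0. The summed levels were lower in the P14 set than in its rest, at 60733 against 64360 CPM and 63949 against 66599 CPM. Apoa5, which promotes the clearance of plasma triglyceride, was at 985, 985, 912, 561 and 946 CPM against 552, 797, 620.2, 331 and 609 CPM (0.65, adjusted p = 1.39e-04). Of 21 acute phase genes, 4 were higher (against 3.71% of all genes tested) and none lower. The summed level of the 21 genes at 48 h was 131261 CPM in the set and 138524 CPM in the rest. In every other library it was higher in the set. Hpx, the haem carrier haemopexin, was at 6527, 6232, 10116, 19140.3 and 8357 CPM against 4868, 3298, 6086, 12716 and 5151 CPM (0.71, adjusted p = 4.38e-04). Lcn2, which binds bacterial iron carriers, was at 86.1, 85.4, 5935, 4061 and 346 CPM against 39.3, 67.4, 4492, 3064 and 193 CPM (0.66, adjusted p = 0.00248). Lcn2 was thus higher in the set both in unoperated liver and at 24 h, where its level was 68.7-fold the adult one. Hp and Lbp had ratios of 0.33 and 0.33.

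Pericentral genes were depleted to different depths. Slc1a2, a glutamate transporter of the cells next to the central vein, was at 0.364, 8.54, 0.387, 0.394 and 0.31 CPM in the set and 13.8, 84.0, 33.4, 31.8 and 56.3 CPM in the rest (log2 ratio -4.64, SD 0.94, adjusted p = 5.52e-06). Cyp2a5, a coumarin-oxidising cytochrome P450, was at 2.55, 4.41, 0.387, 0 and 1.55 CPM against 11.3, 62.4, 30.4, 21.3 and 88.1 CPM (-3.86, adjusted p = 6.43e-05). Both had at most 5 UMIs in the periportal sets after hepatectomy, so their ratios there rest on few counts. Cyp2c29, a cytochrome P450 of drug and fatty acid oxidation, was at 262, 27.5, 19.4, 36.1 and 16.7 CPM against 417, 528, 1148, 1474 and 689 CPM (-4.18, SD 2.09, adjusted p = 0.00228). Its ratio was -0.67 in P14 and between -5.82 and -4.21 in the other 4 libraries. Its relatives Cyp2c37, Cyp2c50 and Cyp2c54 had ratios of -2.72, -2.77 and -2.95. Reads of these near-identical genes may be shared among them. In the drug metabolism list 11 of 22 genes were lower (against 2.6% of all genes tested) and none higher. Among the lower were Cyp3a11 (-1.60), the reductase Por (-0.54) that feeds electrons to cytochrome P450s, and the drug-sensing receptor Nr1i3 (-0.83).

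Genes of bile acid synthesis, the Wnt response and lipid uptake were also among those lower in the set. For all genes tested, the share lower was 2.6%. Cyp7a1, the rate-limiting enzyme of bile acid synthesis, was at 18.2, 3.30, 8.33, 59.1 and 24.1 CPM against 88.1, 29.3, 50.9, 241 and 217 CPM (-2.45, SD 0.45, adjusted p = 2.01e-06), and its ratio was among the steadiest of the 20 named genes. In the bile acid list 5 of 14 genes were lower and none higher: Cyp7a1, Cyp27a1 (-0.68), the uptake carriers Slco1a1 (-0.45) and Slco1b2 (-0.88), and the export pump Abcc2 (-0.27). The list's median, 0.06, had the opposite sign to these calls. Of 10 Wnt target genes tested of 13 listed, 8 were lower and none higher (median -1.31). Lgr5, the R-spondin receptor, was at 1.27, 0.275, 0.968, 0.591 and 0 CPM against 6.32, 5.27, 8.08, 9.08 and 3.82 CPM (-2.95, adjusted p = 5.74e-05), Tbx3, a transcription factor of pericentral cells, had a ratio of -2.71, Axin2, a feedback inhibitor of the pathway, -1.47, and the ammonium channel gene Rhbg -2.65. Lgr5 and Axin2 were at low levels everywhere, with 0 UMIs of each in the 96 h set. Lpl, lipoprotein lipase, was at 720.0, 1.38, 0.387, 4.53 and 13.0 CPM against 1157, 19.3, 7.73, 32.4 and 118 CPM (-1.86, adjusted p = 0.00549), with its smallest ratio, -0.68, in P14, where its level was highest. Avpr1a, the vasopressin receptor, and Pcp4l1, a small calmodulin-binding protein, had ratios of -2.19 and -2.31.

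The distance between the zones differed between libraries. It was summarised as the median log2 ratio of the held-out periportal genes minus that of the held-out pericentral genes. This contrast was 1.58, 3.06, 1.70, 1.87 and 2.24 in the order given above (mean 2.09, SD 0.60, n = 5 libraries). Periportal medians were 0.78, 0.52, 0.48, 0.70 and 0.48, and the pericentral medians, at -0.81, -2.54, -1.22, -1.17 and -1.76, ranged more widely. With the highest 25% of scores as reference in place of all other hepatocytes, the contrast was 2.30, 4.51, 2.52, 3.10 and 3.77, with the adult control again highest and P14 lowest. Whether free RNA, the place of the limit or the number of cells had a part in this order was not tested.

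**Figure D4:**
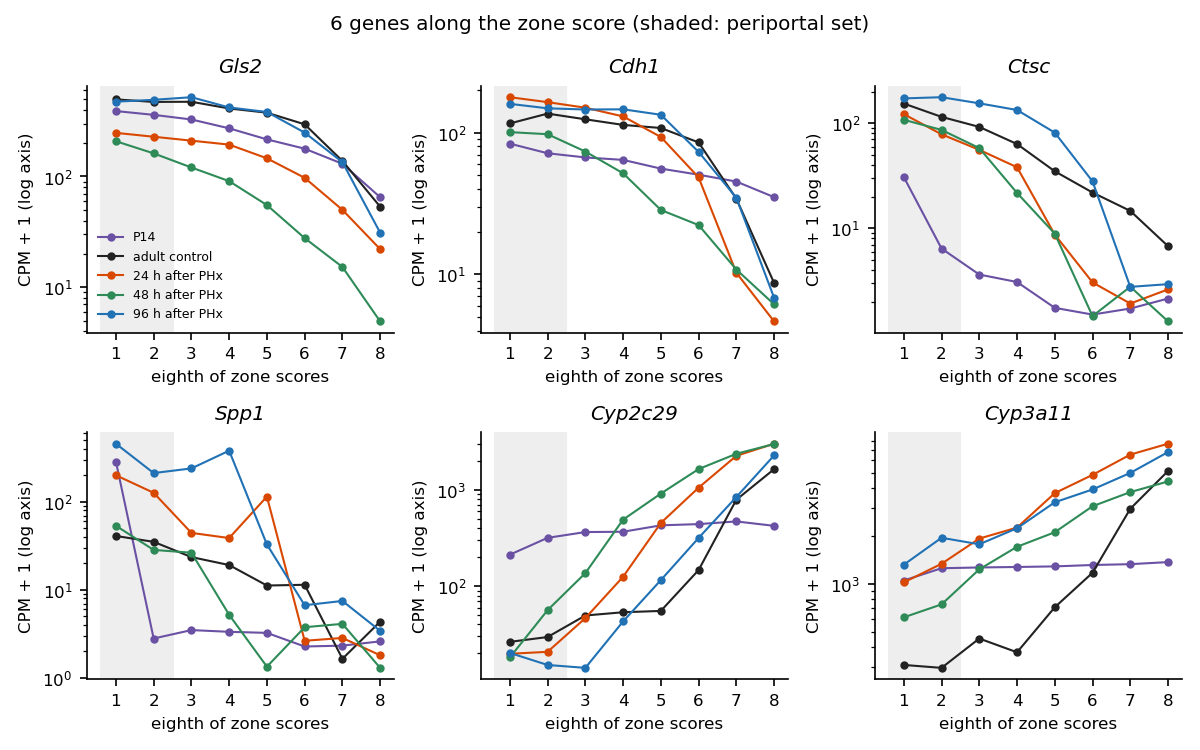
CPM plus 1 on a log axis (vertical) of 6 genes across eighths of the zone score, from the most periportal (1) to the most pericentral (8), one line per library. Grey marks the periportal set. Cyp3a11 runs from 1048 to 1369 CPM and Cyp2c29 from 212 to 424 CPM in P14, less steeply than in the other 4 libraries. Spp1 of P14 is high in the first eighth, at 286 CPM against at most 2.50 CPM. In the P14 set, 7 cells with a UMI of Epcam, Krt7, Krt19 or Cftr held 1986 of the 2515 Spp1 UMIs.

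Profiles across eighths of the score showed how far the periportal state reached. Gls2 in the adult control stayed between 409.7 and 495 CPM over the first 4 eighths and was 52.4 CPM in the last, whereas at 48 h it went from 207 CPM in the first to 89.7 CPM in the fourth and 3.93 CPM in the last. Cdh1 in P14 went from 82.6 to 34.0 CPM over the 8 eighths, and at 24 h from 177 to 3.65 CPM. Cyp3a11, the main drug-oxidising cytochrome P450, was at 1048 CPM in the first and 1369 CPM in the last eighth of P14, and at 307 and 5142 CPM in the adult control.

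Single genes whose zone ratio differed most from the adult control were taken by size alone, with no test. A change of at least 2-fold in the ratio towards the periportal side was seen for 0.544% of 8089 genes in P14, 0.151% of 7950 at 24 h, 0.402% of 7954 at 48 h and 0.143% of 7701 at 96 h, and away from it for 0.247%, 0.377%, 0.214% and 0.377%. In P14 the 5 largest gains were those of Spp1, Cyp2c29, Cyp2c37, Aldh3a2 and Cyp3a11. Apart from Spp1 they were pericentral genes with ratios nearer to 0 than in the adult control, such as the fatty aldehyde dehydrogenase Aldh3a2, with 104 CPM against 164 CPM in P14 and 8.26 CPM against 93.4 CPM in the adult control. At 24 h Lect2, a secreted hepatocyte protein, was at 134 CPM against 253 CPM, compared with 15.4 and 106 CPM in the adult control. Nr1i3 had a ratio of -0.31 there and -1.81 in adult control cells, and Gulo, the last enzyme of vitamin C synthesis, -0.69 and -2.0. These pericentral genes were nearer to the level of the rest in the 24 h set. Birc3 and Mup9 were the other 2 of the 5 named for gains at 24 h, at differences of 1.41 and 1.33.

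The 5 largest losses at 24 h were those of Cenpq, Wee1, Sac3d1, Ces1d and Cyp2c29. Cenpq, a centromere protein, had a ratio of -1.24 against 0.78 in the adult control, Wee1, a kinase that delays mitosis, -1.45 against 0.26, and Sac3d1 -0.59 against 0.90. Ces1d, a lipid esterase, had -1.96 against -0.19. At 48 h the 5 largest gains were those of Aldh3a2, Ccl5, Aldh1b1, Tsc22d1 and Lect2, with differences from 1.59 to 2.13, and the 5 largest losses those of Mup11, Sult2a8, Cyp4a10, Saa3 and Cyp4a12b, from -1.80 to -1.21. At 96 h Cyp4a10, a fatty acid ω-hydroxylase, stood at 24.8 CPM in the set against 142 CPM in the rest, compared with 14.9 and 16.7 CPM in the adult control. Cenpa, Mup11, Ifit1 and Tubb4b followed, at -1.92, -1.90, -1.85 and -1.68, and the 5 largest gains at 96 h were those of Cyp3a11, Mup21, Mup17, Gtpbp1 and Lonrf1, from 1.23 to 1.44. The 5 largest P14 losses were those of 3 globin genes (Hba-a2, Hba-a1 and Hbb-bs), Saa3 and Adgrf1. Globin RNA belongs to red cells, whose markers summed to 40.4 CPM in the P14 set and 152 CPM in the P14 rest.

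Next, the periportal set of each library was set against that of the adult control, which all 4 comparisons share. Ratios are log2 of CPM plus 1, intervals are 95% intervals of counting error only, and a gene was used if it reached 10 CPM in 1 of the libraries compared. Gene lists are given over all their genes, with no such limit. In P14, 7.89% of 7412 genes were at least 2-fold higher and 13.6% at least 2-fold lower, with a median of -0.23 over all genes. The shares were 7.24% and 7.2% of 7348 genes at 24 h, 8.68% and 7.93% of 7466 at 48 h, and 3.42% and 2.24% of 7220 at 96 h, with medians of 0.00, -0.04 and 0.00. The 96 h set thus had the fewest genes past 2-fold from the adult control.

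The immature liver genes H19, Igf2 and Afp were among the 8 with the largest positive ratios in P14. All 3 passed the limit of 10 CPM through P14 and not through the adult control, so no count is given for their list. H19, an imprinted long RNA, was at 13906 CPM in P14 and 0 in the other 4 sets, at least 16835-fold higher than a level of 3 UMIs in the adult set. Igf2, the fetal growth factor, was at 203 CPM and 0 elsewhere, at least 246-fold higher on the same basis. Afp, α-fetoprotein, stood at 492, 0.275, 2.71, 3.35 and 1.24 CPM, where the adult level rests on 1 UMI (log2 interval of the ratio 8.32 to 16.11), and passed as lower in the set than in the rest (-0.63, adjusted p = 0.00467). The sulfotransferases Sult2a1 and Sult2a5, Cyp3a44, Xist and Lpl were the other 5 with the largest positive ratios. Sult2a1, Cyp3a44 and Xist are known to be higher in females.

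Major urinary proteins, which carry scent molecules, and lipid synthesis genes were lowest in P14 relative to the adult control. Among the 8 smallest ratios were genes of the first list and Cyp7b1, an oxysterol hydroxylase, at 0.243 CPM against 610.1 CPM. All 10 major urinary protein genes and Cyp7b1 reached 10 CPM through the adult control and not through P14, so no count is given for them. Mup20 was at 0.607 CPM against 28185 CPM and Mup3 at 3.70 against 22126. These near-identical genes can share reads. Of 22 cholesterol genes, 19 were at least 2-fold lower (median -2.42, and -2.05 in the rest), and of 14 fatty acid synthesis genes 7 were (median -1.57, and -1.73 in the rest). Scd1, which desaturates fatty acids, was at 19.5 CPM against 2347 CPM. Fatty acid oxidation had a median of 0.76 (0.79 in the rest), with 7 of 21 genes at least 2-fold higher and 1 lower, and the urea cycle a median of 0.01. G6pc was at 1259 CPM against 141 CPM.

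Acute phase and metallothionein genes stood above the adult level in the 24 h and 48 h sets, and in the rest of both libraries too. Of 21 acute phase genes, 14 were at least 2-fold higher at 24 h (median 1.43) and none lower, and 15 of 21 at 48 h (median 1.53) with 1 lower, Socs3. Medians in the rest were 1.32 and 1.62. Lcn2 was 68.7-fold higher at 24 h and 47.0-fold at 48 h. Saa1 and Saa2, whose reads may be shared, reached 19601 and 23425 CPM at 48 h against 2352 and 1565 CPM in the adult control. Mt1 and Mt2, which bind zinc and copper, were at 219, 148, 9067, 6516 and 257 and 14.7, 54.2, 3979, 2379 and 52.0 CPM in the sets. The summed stress and metallothionein list was at 15014 CPM in the set and 13845 CPM in the rest at 24 h, and at 10844 and 11724 CPM at 48 h. Cdkn1a, the cell cycle inhibitor p21, was at 78.3, 1.10, 97.8, 69.7 and 5.26 CPM and did not pass between zones (-0.16, adjusted p = 0.618). Socs3, an inhibitor of the interleukin-6 signal, was at 2.43, 65.3, 36.0, 20.3 and 11.1 CPM, highest in the adult control.

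The other named genes with large positive ratios at 24 h included Gstm3, Gstm2, Ly6d, Igfbp1 and the metallothioneins Mt2 and Mt1. Gstm3 was at 2.67, 4.13, 542, 45.1 and 24.8 CPM in the set and 5.88, 25.7, 559, 67.0 and 89.4 CPM in the rest. Gstm3 reached 10 CPM through the 24 h set and not through the adult set, so it is given as levels. It was a pericentral gene in the adult control and near equal in both zones at 24 h. Gstm2 was 34.4-fold, Ly6d 69.2-fold, Mt2 72.0-fold and Mt1 60.9-fold higher than in the adult set. Igfbp1, a binding protein of insulin-like growth factors, was at 1781, 18.2, 431, 222 and 20.4 CPM. The lowest ratios at 24 h belonged to AC169509.3, Inmt, a methyltransferase, Sult2a8, Upp2, a uridine phosphorylase, Hsd3b5, a steroid enzyme of male liver, Ces1d, Dbp, a clock output factor, and Car3, a carbonic anhydrase. Car3 was at 212, 1951, 141, 146 and 2196 CPM and Inmt at 267, 140.4, 2.13, 43.5 and 277 CPM, so both stood near or above the adult level again at 96 h. Dbp was at 13.2, 147, 9.68, 6.30 and 138 CPM. The 13 clock genes had a median of -0.92 at 24 h and -1.68 at 48 h (-0.96 and -1.87 in the rest).

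Several metabolic lists had medians below 0 in the 24 h and 48 h sets, and in the rest of both libraries too. Gluconeogenesis and glycogen genes had medians of -0.72 and -0.97 (-0.49 and -1.07 in the rest). Of these 15 genes, 5 and 6 were at least 2-fold lower and none higher. All 15 also met the limit of 10 CPM, under which 7.2% and 7.93% of all genes were at least 2-fold lower. Fatty acid oxidation had medians of -0.67 and -0.42 (-0.55 and -0.42 in the rest) and fatty acid synthesis -0.80 and -1.08 (-0.50 and -0.69). Bile acid genes had -0.68 and -0.85 (-0.65 and -0.88 in the rest), whereas cholesterol genes had 0.40 and 0.02 (0.72 and 0.40). The urea cycle differed by gene. At 24 h Otc was at -1.07 and Gls2 at -1.02, while Cps1 was at 0.67 and Arg1 at 0.50. The urea cycle median was 0.00 at 24 h and -0.49 at 48 h (-0.05 and -0.79 in the rest). Cyp8b1, an enzyme of bile acid synthesis, was at 123, 218, 51.7, 33.5 and 187 CPM and Slc10a1, the bile acid uptake carrier, at 583, 649.5, 261, 324 and 789 CPM. Cyp7a1 went the other way, at 3.80 at 48 h, but it reached 10 CPM through the 48 h set and not through the adult control. The 22 held-out pericentral genes had medians of 0.18 and 0.61 in the periportal set (-0.38 and 0.17 in the rest), and 6 and 4 of them were under 10 CPM in both libraries compared, whereas held-out periportal genes had -0.27 and -0.51 (-0.33 and -0.88 in the rest).

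Of the 8 named genes with the largest ratios at 48 h, Mki67, Knstrn, Cdca3 and Prtn3 reached 10 CPM through the 48 h set only. The adult control did not reach it for them, so they are given as levels. Mki67, a marker of dividing cells, was at 68.1, 1.93, 29.8, 109 and 8.36 CPM. Knstrn, a spindle protein, was at 15.0, 0.551, 7.55, 64.6 and 3.41 CPM, and Cdca3, which promotes mitotic entry, at 30.5, 3.58, 14.7, 149 and 17.3 CPM. The adult levels of Mki67, Knstrn and Cdca3 rest on 7, 2 and 13 UMIs. Prtn3, a granule protease of neutrophils, was at 1.46, 2.20, 29.6, 149 and 18.0 CPM in the set and 3.99, 4.34, 52.5, 243 and 38.1 CPM in the rest, beside summed neutrophil markers of 181 and 201 CPM at 48 h and 8.81 and 12.3 CPM in the adult control. Their part in Prtn3 was not tested. Among the lowest ratios were Moxd1, Mup11, Ugt2b38, Sult2a8, Mup18, AC169509.3, Dbp and Phlda1, and Moxd1 was at 0, 84.5, 34.7, 0.591 and 0 CPM.

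Several metabolic lists stood near the adult level at 96 h. Medians were 0.01 for the urea cycle, 0.10 for gluconeogenesis and glycogen, 0.12 for fatty acid oxidation, 0.31 for cholesterol, -0.07 for fatty acid synthesis and -0.36 for the acute phase. Other lists were above it. Mitosis genes had a median of 0.87 (2.81 in the rest), with 13 of 28 at least 2-fold higher. Of these 28, 24 were under 10 CPM in both sets, and 3 more reached it through 96 h only. Replication genes had 0.70 (0.81 in the rest), with 10 of 23 at least 2-fold higher. Of these 23, 18 were under 10 CPM in both sets, and Mcm6, Rrm1 and Rrm2 reached it through 96 h only. Nuclear respiratory chain genes had 0.51 (0.57 in the rest), with 13 of 93 at least 2-fold higher. Among the largest positive ratios were those of Hamp2, a hepcidin gene of iron balance (10.7-fold), Spp1 (9.08-fold), Hes1, a Notch target (5.80-fold), Cyp3a11 (5.45-fold), A2ml1 (4.50-fold), Inhba, a subunit of activin (4.20-fold), and Tstd1 (4.08-fold). Hes1 was at 43.5, 13.2, 44.2, 31.3 and 81.4 CPM and was above the adult level in the other 4 sets. Major urinary proteins were still lower, with 8 of 10 genes at least 2-fold lower and a median of -3.93 (-3.59 in the rest). Mup11 was at 0, 18361, 2927, 434 and 76.8 CPM over the 5 sets. Mup3 was at 3.70, 22126, 15725, 10074 and 10045 CPM, so members of this family stood at unequal distances from the adult level. Moxd1 and Serpina3c were the other 2 of the 8 smallest ratios.

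Division genes were compared between zones by the share of cells with at least 3 different genes of a list after thinning each cell to 5000 UMIs. Replication genes marked 88 of 295 periportal cells at 24 h (29.8%, exact 95% binomial interval 24.7 to 35.4%) and 52.6% (49.2 to 55.9%) of the rest. The 48 h shares were 24.4% (18.4 to 31.4%) and 31.5% (27.6 to 35.7%), and the 96 h shares 3.61% (1.46 to 7.29%) and 7.45% (5.45 to 9.91%). For P14 they were 12% (9.31 to 15.0%) and 10.3% (8.81 to 11.9%), and in the adult control 0 of 238, which allows up to 1.54%, and 1.60% (0.80 to 2.85%). Replication was thus less frequent in the periportal set in 4 of 5 libraries and most so at 24 h. With at least 2 genes in place of 3, the P14 shares were 21.4% and 22.2%, which turned the direction in P14. Over the 5 libraries the mean difference was -6.72 percentage points (SD 9.51), and an exact sign-flip permutation test gave a two-sided p of 0.1875, where the smallest possible p was 0.0625, so no call at 0.05 could be reached. Without the 24 h library the mean difference was -2.71 points.

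**Figure D5:**
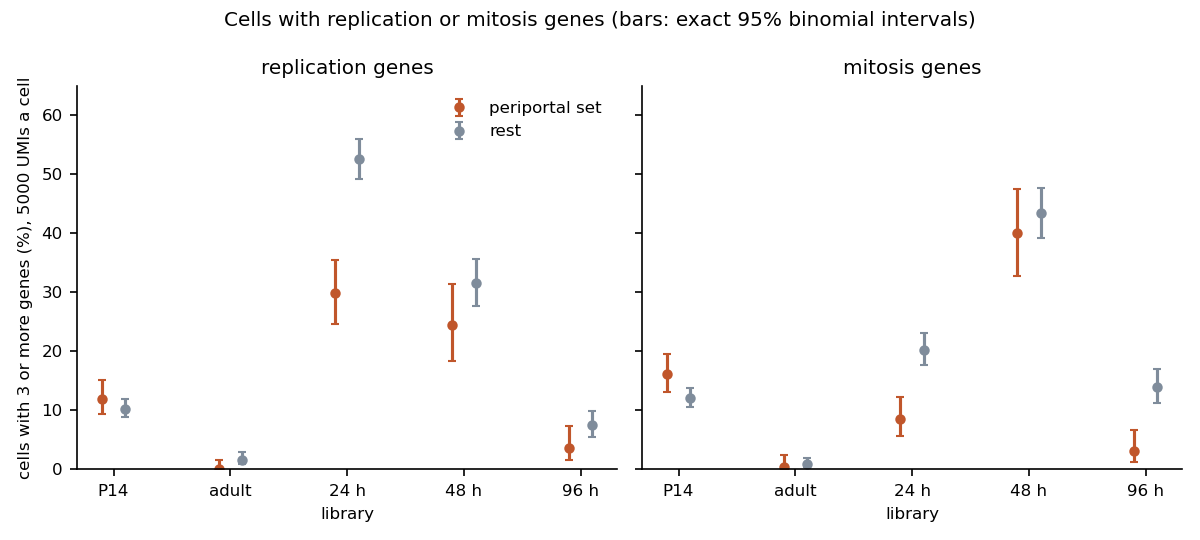
Percentage of cells with at least 3 replication genes (left) or mitosis genes (right) after thinning to 5000 UMIs, for the periportal set and the rest of each library, with exact 95% binomial intervals. At 24 h the replication shares are 29.8% and 52.6%, and at 96 h the mitosis shares are 3.09% and 13.9%.

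Mitosis shares were highest at 48 h and showed the gap at 24 h and 96 h. At 24 h they marked 8.47% (5.56 to 12.3%) of periportal cells against 20.2% (17.6 to 23.1%) of other hepatocytes. The shares for 48 h were 40.0% (32.8 to 47.5%) against 43.4% (39.2 to 47.7%), and those for 96 h 3.09% (1.14 to 6.61%) against 13.9% (11.2 to 17.0%). In P14 they marked 16.1% (13.1 to 19.6%) against 12.1% (10.5 to 13.8%), and in the adult control 0.42% and 0.87%. The mean difference was -4.47 points (SD 6.75), with an exact sign-flip permutation p of 0.3125 (two-sided), and it was -2.65 points without the 24 h and -2.90 points without the 96 h library. Among the highest 25% of scores, 22.1, 36.7 and 22.2% of cells were mitosis-positive at the 3 times after hepatectomy and 7.97% in P14. With a score that leaves out Cyp2e1, the P14 shares were 12.5% in the set, 13.3% in the rest and 12.9% among the highest scores, so the P14 set was then not above the rest. Without thinning, the replication shares at 24 h were 68.1% and 83.7% and the mitosis shares at 96 h 8.25% and 27.9%. The unthinned mitosis shares at 48 h were 69.4% and 65.1%, opposite in direction to the thinned ones.

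Summed counts of division genes gave few calls between zones, near the 3.71% higher and 2.6% lower of all genes tested. Of 23 replication genes, Mcm6, a subunit of the replicative helicase, was lower (-0.51, adjusted p = 0.0148), with 42.2, 3.30, 71.1, 48.5 and 11.5 CPM against 45.8, 4.23, 132, 63.3 and 26.2 CPM, and none was higher. Of 28 mitosis genes 0 passed edgeR's test, and their median ratios by library were 0.39, 0.18, -0.72, -0.35 and -1.50. Mki67 had ratios of 0.58, 0.39, -0.80, -0.17 and -2.12 and Top2a, the topoisomerase that untangles replicated DNA, 0.26, -0.06, -0.71, -0.47 and -1.15. The adult values rest on 7 Mki67 UMIs and 6 Top2a UMIs in the set.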

How the data were processed

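The deposited matrices of UMI counts per gene and barcode came from 10x v3 libraries of 5 liver cell suspensions, with bcl2fastq 2.17.1.14, Cell Ranger, Seurat 3.1 and build mm10 named in the submitters' processing notes, and software version 3.0.2 per the file headers. The matrices were unfiltered and held no cell types, so cells were rebuilt here with Python 3.11.15, numpy 2.4.6 and scipy 1.17.1. The members and gene lists were chosen with earlier results of these data known. Hepatocytes with an mt- share of 10 to 30% and at least 5000 UMIs were kept, and doublets were left in except in an alternative with Scrublet (scanpy 1.11.5). Counts were summed per library and zone and tested with edgeR 4.0.16 in R 4.3.3 (TMM, filterByExpr, quasi-likelihood F test, Benjamini-Hochberg adjustment at 0.05), with the library as a block because both sums of a pair come from the same library. The test was also run on simulated counts. DESeq2 1.42.0 was an alternative. CPM were computed over non-mitochondrial UMIs, and a pseudocount of 1 CPM was used in log2 ratios.

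Named genes were the 10 largest and 10 smallest log2 ratios among those that passed, had 1 sign in 5 of 5 libraries and reached 50 CPM in any set or rest. In each library against the adult control they were the 8 largest and 8 smallest ratios with 50 CPM in either, for zone ratios the 5 largest gains and losses with 20 UMIs in all 4 sums, and any gene of the lists. The lists of ribosomal protein and respiratory chain genes were added with the files in hand. Intervals are 95% exact intervals and cover counting error only. Alternatives left out each library, or changed the reference, the score, the cell filters, the scaling, the pseudocount and the CPM limit. Lists set against the adult control are given without that limit, a choice made after seeing the data, since some genes reached it through 1 library only. As no label names the animals, p-values measure the spread between these libraries only. Of the genes these rules select, 2 are not reported here.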

Additional observations from a re-analysis of the deposited data

Results flagged for a closer look

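For 9 of 453 genes examined, the ratio of the periportal set over the rest was at least 1.5-fold positive in 1 library and at least 1.5-fold negative in another, each with a counting interval that excluded 0. None of these differences between libraries was tested. Most were genes of division. Rrm2, a subunit of the enzyme that makes deoxynucleotides, had log2 ratios of 0.75 in P14 and at lowest -1.12 after hepatectomy, and Plk1, a mitotic kinase, 0.61 in P14 and at lowest -1.74. Cdk1, the kinase that drives mitotic entry, had 0.74 in the adult control and at lowest -0.92, Ube2c, which helps to destroy cyclins, 0.94 and -1.39, Cdc20, its partner in that step, 0.96 and -2.82, and Kif20a, a spindle motor, 1.02 and -3.00. The adult values rest on few UMIs, with summed mitosis genes at 81.5 CPM in the adult set. Saa3, an acute phase gene, had 0.61 in the adult control and -0.82 in P14. Hamp2, a hepcidin gene, had 1.22 in P14 and -1.27 at 48 h, and Ciart, a clock repressor, 0.69 in P14 and -0.80 at 24 h.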

How the results depend on the processing

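Among results that answer a comparison, 195 alternative values stayed near the reported one and 47 moved. No mean over libraries and no named gene recomputed changed sign. Within single libraries the P14 mitosis shares changed direction with a score that leaves out Cyp2e1 (12.5% in the periportal set against 13.3%), the P14 replication shares with at least 2 genes (21.4% against 22.2%), and the 48 h mitosis shares without thinning (69.4% against 65.1%). Without the replicate block, which leaves out the library term, 0 genes were higher and 0 lower (153 at an unadjusted p under 0.05), and none of the 20 named genes passed. With mitochondrial shares of 10 to 20%, 146 genes were higher and 169 lower, and without a filter on low counts 567 and 675, so lower calls outnumbered higher ones in both, the reverse of 399 and 280. Leaving out 1 library gave 257 to 490 genes higher and 177 to 480 lower. Without 24 h 265 were higher, without 48 h 257, without P14 480 were lower and without the adult control 177. With the highest 25% of scores as reference, the held-out periportal median was 1.08 and the zone contrasts were 2.30, 4.51, 2.52, 3.10 and 3.77, and with mitochondrial shares of 10 to 20% the adult contrast was 4.38.

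Counts of genes at least 2-fold from the adult set moved with the limits. With 10 to 20% mitochondrial UMIs, 910 genes were higher in P14, 985 higher and 1092 lower at 24 h, 1208 and 1031 at 48 h, and 943 and 1093 at 96 h, so the higher share of calls at 96 h went from 60.4% to 46.3%. A pseudocount of 10 CPM gave 369 and 569 in P14, 280 and 280 at 24 h, 354 and 319 at 48 h, and 94 and 62 at 96 h. A limit of 50 CPM gave 259 and 491, 222 and 247, 249 and 282, and 86 and 59 in the same order. A 4-fold limit gave 222 and 283, 136 and 82, 202 and 94, and 36 and 35. Over the 16 held-out pericentral genes with 10 CPM at 24 h or in the adult set, 2 of which reached it through 24 h only, the median was 0.53, against 0.18 over all 22. The mitochondrial alternative rests on few cells, and the cause of each shift was not tested.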

Other observations

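The major urinary proteins, secreted carriers of scent molecules whose genes are nearly identical, did not share a zone. Mup20 (0.95, adjusted p = 2.90e-04 by edgeR) and Mup3 (0.43, adjusted p = 0.0344) were higher in the periportal set, and Mup17 (-2.19), Mup11 (-1.85), Mup16 (-0.61) and Mup7 (-0.42) lower. Mup20 stood at 0.607, 28185, 15993, 4246 and 7928 CPM in the set and 0.541, 18881, 8555, 2144 and 3369 CPM in the rest, and Mup17 at 0, 1204, 363, 114 and 53.9 CPM and 0, 7862, 2242, 441 and 147 CPM. Reads can be shared among these genes, so the values are uncertain. In the growth hormone and insulin-like growth factor list, Igf1, the hormone itself (0.29), and Cish, a feedback inhibitor (0.36), were higher, and Prlr, the prolactin receptor (-0.54), and Socs2, another inhibitor (-0.64), lower, of 10 genes tested. Igf1 was at 1392, 1183, 1367, 1109.7 and 1640.0 CPM in the set and 1073, 1045, 1165, 949 and 1338 CPM in the rest, one of the more even RNAs over the 5 libraries.

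Nuclear genes of the respiratory chain, which makes ATP, were a list added with the files in hand. Of 87 tested, 28 were higher (against 3.71% of all genes tested) and none lower in the periportal set, with a median log2 ratio of 0.17, small beside the 0.58 of the held-out periportal genes. Mitochondrial UMI shares were also higher in the set, at 21.2 to 26.5% against 20.4 to 25.9%, and their part in this was not tested. Ribosomal protein genes had 3 of 80 lower, against 2.6% of all genes tested, and none higher (median -0.09). Of the 80, 44 were lower in 5 of 5 libraries, against 10.4% of all genes tested. Among the remaining lists, Hmox1 was the 1 stress gene of 13 that was lower (-0.56), Hfe2 the 1 iron gene of 12 (-0.25), Lifr the 1 receptor of 12 (-0.37), and Egr1 (-0.28) and Hspa1b (-0.87) were lower among 12 genes known to respond to cell dissociation. None of 12 clock genes and none of 11 hepatocyte transcription factors passed. Over all genes tested, 3.71% were higher and 2.6% lower, so lists of this size with none or 1 call are near the background.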
